A study of Homo sapiens with 12 samples.

Results

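The serine synthesis and folate one-carbon enzymes were followed as 9 genes of 58735 gene symbols in the count tables. They were taken by symbol: PHGDH, PSAT1, PSPH, SHMT1, SHMT2, MTHFD1, MTHFD1L, MTHFD2 and ALDH1L2. Each symbol had 1 row, and all 9 passed the filter on low counts, as did 17780 genes in all. RNA was sequenced from MDA-MB-468, an established human triple-negative breast cancer cell line, in 4 groups of 3 libraries, lettered A, B and C. The first group received 10 nM docetaxel, a taxane that stabilises microtubules, for 8 h in 10 cm plates. The second received the same dose for 24 h. The third, called the combination here, received 5 µM tazemetostat, an inhibitor of the histone methyltransferase EZH2, with 5 µM ipatasertib, an inhibitor of the AKT kinases, for 24 h in 6 cm plates and 2% FBS. According to the labels, those cultures followed 5 days of tazemetostat or DMSO. The last group received DMSO, the solvent. Its hours, serum and plates are not stated, no vehicle group is labelled 8 h, no group is labelled with either inhibitor alone, and no serum level is given for docetaxel. Treatment, duration and culture conditions therefore cannot be told apart in the comparisons with DMSO. Whether the letters mark cultures grown apart is not labelled, and the p-values cover only spread from library to library, which may be technical.

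Serine is made from the glycolytic intermediate 3-phosphoglycerate in a short chain of reactions run by PHGDH, PSAT1 and PSPH. Serine hydroxymethyltransferases then move a carbon unit from serine to tetrahydrofolate and release glycine, in the cytosol (SHMT1) and in mitochondria (SHMT2). The MTHFD enzymes interconvert the folate-bound units, which feed purine and thymidylate synthesis, and mitochondria export part of them as formate. PHGDH is known for copy gain or high expression in oestrogen receptor-negative breast cancer, and MDA-MB-468 is a line often used as an example of it. DNA copy number was not measured here.

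Library totals ran between 29820617 and 45807059 counts, and the common biological coefficient of variation was 5.59%. Epithelial markers (EPCAM, CDH1 and keratins) were abundant, with sums of 6588 to 10528 CPM (counts scaled to a fixed library size of 1e6). In the combination KRT18 rose (0.46), CDH1 (-0.48) and KRT19 (-0.50) fell, and EPCAM and KRT8 were not called. Of the basal markers, KRT17 (1.53), KRT5 (0.81) and KRT14 (0.66) rose and EGFR (-0.31) fell at 8 h docetaxel. In the combination KRT17 (0.68) and EGFR (0.35) rose, KRT5 (-0.79) fell and KRT14 was not called. PGR did not exceed 0.0357 CPM and ESR1 did not exceed 2.13 CPM in any library. ERBB2, the third receptor gene of that subtype's definition, averaged 71.1, 81.8 and 93.2 CPM in docetaxel 8 h, docetaxel 24 h and the combination, against 101 CPM in DMSO. Immune markers summed to at most 0.248 CPM. Of 4 endothelial markers, PECAM1 and VWF averaged at most 0.350 CPM in every group, while KDR had 13.99, 13.1 and 36.4 CPM in docetaxel 8 h, docetaxel 24 h and the combination, against 22.2 CPM in DMSO. The fourth, CDH5, had 0.425, 0.802 and 2.43 CPM in docetaxel 8 h, docetaxel 24 h and the combination, against 0.647 CPM in DMSO. KDR (0.71, adjusted p = 3.08e-07) and CDH5 (1.89, adjusted p = 2.81e-06) rose in the combination. Of 6 fibroblast markers, summing to 12.9 to 28.2 CPM, COL1A1 was most of the sum, DCN was at most 0.389 CPM, and LUM was 4.17 ± 0.427 CPM in the combination and at 0 in the other groups. PDGFRA had 0.799, 1.04 and 4.98 CPM in docetaxel 8 h, docetaxel 24 h and the combination, against 1.73 CPM in DMSO, falling at 8 h (-1.12) and 24 h (-0.72) and rising in the combination (1.53, adjusted p = 2.33e-07). Counts of the mitochondrial genome took 8.20 to 8.997% of docetaxel 8 h libraries, 5.00 to 7.53% of docetaxel 24 h libraries and 7.71 to 9.30% of combination libraries, against 4.001 to 4.48% of DMSO libraries. No enzyme changed its call when those genes were left out before scaling. The part of these marker changes in the results was not tested.

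All values below are CPM after scaling between libraries by trimmed means (TMM), given as mean ± SD of 3 libraries. Log2 fold changes carry their standard error and a Benjamini-Hochberg adjusted p from edgeR's quasi-likelihood test over all 17780 genes. A gene is said to have risen or fallen only where that p was under 0.05. Libraries of compared groups often did not overlap. Against DMSO this held for 56%, 53.1% and 67.7% of all genes tested in docetaxel 8 h, docetaxel 24 h and the combination. It held for 43.5% at 24 against 8 h docetaxel, and for 66% and 67.6% in the combination against docetaxel 24 h and 8 h.

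PHGDH, the dehydrogenase that commits 3-phosphoglycerate to serine synthesis (chr1:119648411-119744226, plus strand, GRCh38), fell early with docetaxel and rose with the inhibitor combination. Libraries A, B and C had 649, 577 and 587 CPM after docetaxel for 8 h, 958, 942 and 958 CPM after 24 h and 1731, 1539 and 1634 CPM in the combination, against 997, 1013 and 1012 CPM in DMSO. All 3 combination libraries lay above every other library, and all 3 docetaxel 8 h libraries below. The log2 fold change was -0.74 ± 0.054 at 8 h (adjusted p = 3.26e-10) and 0.70 ± 0.054 in the combination (adjusted p = 1.22e-10), a level 1.62 times that of DMSO. In bulk RNA, fewer cells of a type and less RNA per cell cannot be told apart. At 24 h docetaxel the value was -0.081 ± 0.054 (adjusted p = 0.239), which did not pass. The docetaxel 24 h and DMSO libraries did not overlap, as was so for 53.1% of all genes tested. Ordered by mean level, the combination stood first, then DMSO and docetaxel 24 h as neighbours that did not differ past the threshold, then docetaxel 8 h. PHGDH held rank 199 of 17780 genes by mean CPM at 8 h docetaxel, rank 95 at 24 h and rank 42 in the combination, against rank 81 in DMSO.

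PSAT1, the aminotransferase that follows PHGDH (chr9:78297143-78330093, plus strand), was lower than DMSO in all treatments. It had 227, 211 and 217 CPM at 8 h docetaxel, 287, 319.9 and 314 CPM at 24 h and 280.0, 272 and 274 CPM in the combination, against 351, 347 and 354 CPM in DMSO. The DMSO libraries lay above every treated library. It fell by 0.68 at 8 h (adjusted p = 2.27e-10), by 0.19 at 24 h (adjusted p = 0.00284) and by 0.35 in the combination (adjusted p = 1.67e-06), on the log2 scale. The neighbours in its order, DMSO, docetaxel 24 h, combination and docetaxel 8 h, each differed past the threshold. The difference between the combination and docetaxel 24 h (-0.16 ± 0.049, adjusted p = 0.00768) did not pass without docetaxel 24 h library C (-0.13, adjusted p = 0.0549).

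The upstream stretches of PHGDH and PSAT1 are shown because these neighbouring enzymes of the chain moved in opposite directions in the combination and together at 8 h docetaxel. Each run is the 250 bases before a RefSeq transcript start (GRCh38.p14, plus strand, 5′ to 3′, chr1:119711684-119711933 and chr9:78296875-78297124), and capitals mark CCAAT boxes on either strand.
PHGDH: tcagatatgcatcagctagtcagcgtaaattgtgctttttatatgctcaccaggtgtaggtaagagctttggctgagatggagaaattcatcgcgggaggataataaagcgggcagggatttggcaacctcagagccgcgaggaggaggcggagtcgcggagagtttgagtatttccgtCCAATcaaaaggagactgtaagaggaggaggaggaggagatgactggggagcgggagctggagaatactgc
PSAT1: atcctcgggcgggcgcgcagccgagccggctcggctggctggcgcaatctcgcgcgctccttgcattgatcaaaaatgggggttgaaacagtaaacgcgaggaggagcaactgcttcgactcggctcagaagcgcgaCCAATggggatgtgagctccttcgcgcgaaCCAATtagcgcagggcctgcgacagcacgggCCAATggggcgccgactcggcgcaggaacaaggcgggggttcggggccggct
The PHGDH stretch held 1 CCAAT box and the PSAT1 stretch 3. In their own 250 bases MTHFD1 held 1, MTHFD1L 0 or 1 by start, and MTHFD2 and SHMT1 2. Each of these genes fell in the combination, and box number against level was not tested. Among 35116 RefSeq promoters, 32.0% held at least 1 in this window and 2.93% at least 3. This motif was added after the sequences were read, and a match describes letters, not a site in use. RefSeq promoter sequence matched 6 of the 9 genes, with PSPH, SHMT2 and ALDH1L2 unmatched.

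PSPH, the phosphatase that releases free serine (chr7:56011051-56051604, minus strand), moved opposite to PHGDH in the combination. It had 343, 325 and 325 CPM at 8 h docetaxel, 470.3, 505 and 467 CPM at 24 h and 273, 261 and 265 CPM in the combination, against 466, 470.1 and 470.4 CPM in DMSO. The combination libraries were the lowest and the docetaxel 8 h libraries the next, while docetaxel 24 h and DMSO overlapped. The log2 fold change was -0.82 ± 0.047 in the combination (adjusted p = 9.07e-13), -0.50 ± 0.047 at 8 h (adjusted p = 1.24e-08) and 0.036 ± 0.047 at 24 h (adjusted p = 0.574). Within a library, PHGDH counts were 1.82 ± 0.0582 times PSPH counts at 8 h docetaxel, 1.98 ± 0.105 times at 24 h and 6.13 ± 0.227 times in the combination, against 2.15 ± 0.00846 times in DMSO. The ratio of PHGDH to PSAT1 was 2.77 ± 0.0797, 3.11 ± 0.205 and 5.93 ± 0.265 in docetaxel 8 h, docetaxel 24 h and the combination, against 2.88 ± 0.0390 in DMSO. Both ratios were chosen after the values were seen and were not tested.

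PSPH has an unprocessed pseudogene, PSPHP1, 238 kb away on chromosome 7, which took 1426 to 3025 counts a library. PSPHP1 reached 17.9% of PSPH at 8 h docetaxel, 13.2% at 24 h and 19.2% in the combination, against 10.8% in DMSO. It was higher than DMSO at 8 h (0.22 ± 0.072, adjusted p = 0.0135) and at 24 h (0.33 ± 0.071, adjusted p = 0.000736), with 0.021 ± 0.073 in the combination (adjusted p = 0.816). How reads common to the gene and its copy were divided is not stated, so PSPH carries that uncertainty. The EGFR receptor gene, 799 kb from PSPH on the same chromosome, had -0.31 ± 0.077 at 8 h (adjusted p = 0.00214), -0.53 ± 0.077 at 24 h (adjusted p = 8.44e-06) and 0.35 ± 0.077 in the combination (adjusted p = 0.000364), against DMSO. In the combination EGFR and PSPH thus differed in sign. Both genes were picked for their position after the counts were seen.

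**Figure D1:**
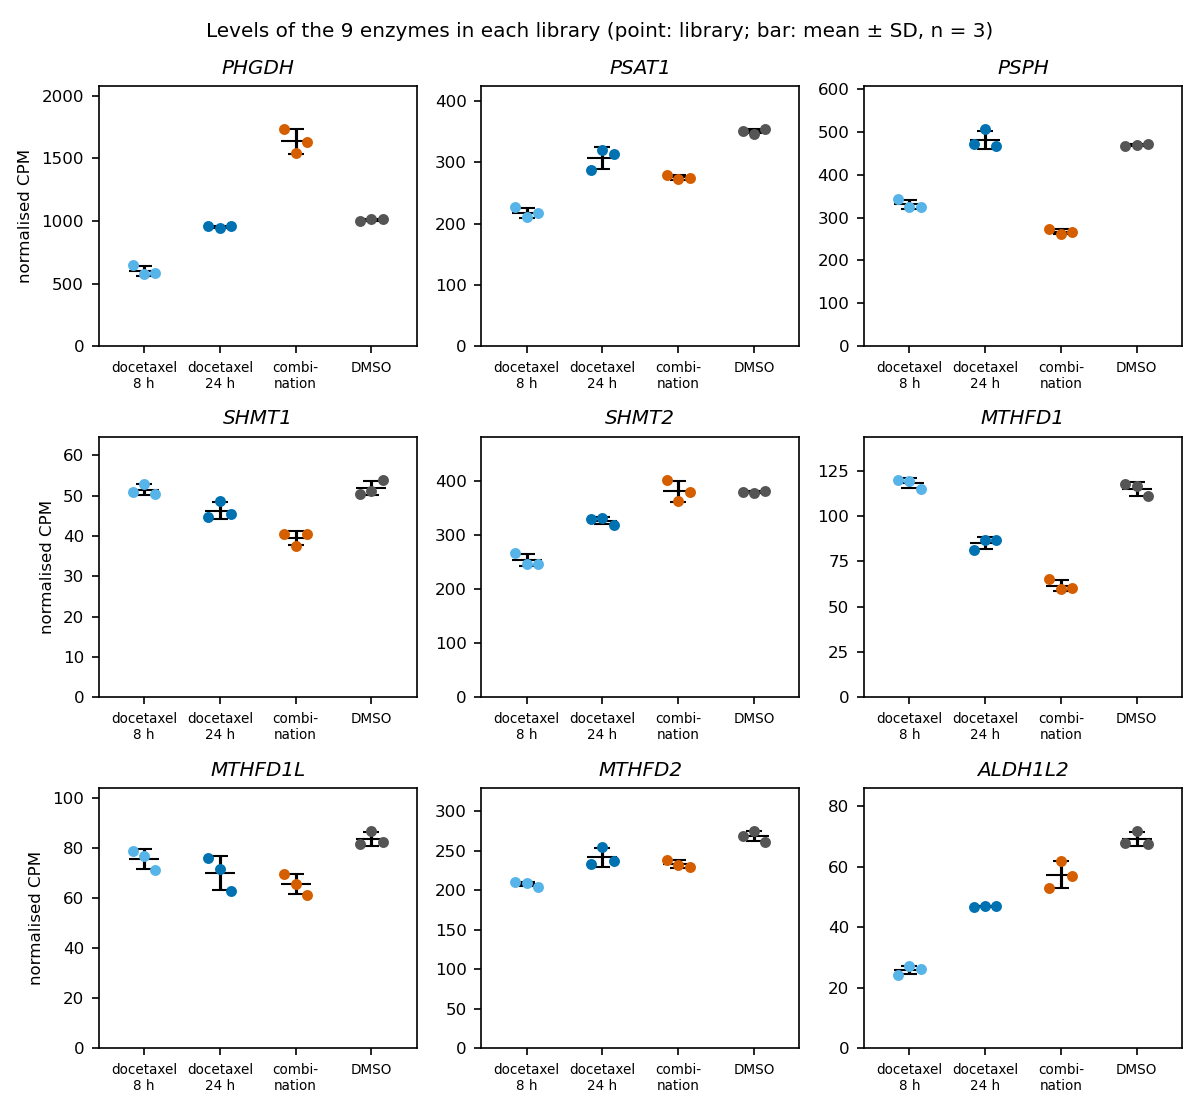
Level of each enzyme in CPM (vertical axes from 0, TMM-scaled) in docetaxel 8 h, docetaxel 24 h, the combination and DMSO. Points are libraries, bars are means with SD of 3 libraries; PHGDH averages 1635 CPM in the combination against 1008 CPM in DMSO, while ALDH1L2 is lowest at 8 h docetaxel, at 25.9 CPM against 69.0 CPM in DMSO.

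Of the serine hydroxymethyltransferases, the mitochondrial one fell at both docetaxel times, and the cytosolic one fell at 24 h docetaxel and in the combination. SHMT2, the mitochondrial enzyme (chr12:57229327-57234935, plus strand), had 268, 248 and 247 CPM at 8 h docetaxel, 330.2, 331 and 319 CPM at 24 h and 402, 364 and 379.7 CPM in the combination, against 380.3, 378 and 383 CPM in DMSO. Docetaxel libraries lay below DMSO at both times, and combination libraries lay on both sides of it. SHMT2 fell at 8 h (-0.58 ± 0.049, adjusted p = 2.74e-09) and at 24 h (-0.22 ± 0.049, adjusted p = 0.00094), with 0.0052 ± 0.049 in the combination (adjusted p = 0.934). SHMT1, the cytosolic enzyme (chr17:18327860-18363563, minus strand), had 51.0, 52.9 and 50.4 CPM at 8 h docetaxel, 44.6, 48.7 and 45.5 CPM at 24 h and 40.4, 37.4 and 40.4 CPM in the combination, against 50.3, 51.2 and 53.8 CPM in DMSO. The combination libraries were the lowest, and docetaxel 8 h and DMSO overlapped. SHMT1 fell in the combination (-0.39 ± 0.055, adjusted p = 1.51e-06) and at 24 h docetaxel (-0.16 ± 0.054, adjusted p = 0.018), with -0.0085 ± 0.054 at 8 h (adjusted p = 0.917). The 24 h call was lost when any of docetaxel 24 h library A or C or DMSO library B or C was left out, with values of -0.16 to -0.12 and adjusted p of 0.0509 to 0.128. With library totals in place of TMM, SHMT1 at 8 h was -0.16 (adjusted p = 0.0197), in a scaling that moved the median of all genes in that comparison by -0.16.

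The ratio of SHMT2 to SHMT1 counts within a library averaged 4.94 ± 0.292 at 8 h docetaxel, 7.08 ± 0.309 at 24 h and 9.68 ± 0.281 in the combination, against 7.35 ± 0.218 in DMSO. The ratio of MTHFD2 to MTHFD1, a mitochondrial and a cytosolic enzyme of the next steps, averaged 1.76 ± 0.0163 at 8 h docetaxel, 2.84 ± 0.112 at 24 h and 3.79 ± 0.112 in the combination, against 2.34 ± 0.0415 in DMSO. These are ratios of counts, not of molecules, since the transcripts differ in length. Both ratios were lower than DMSO in every 8 h library and higher in every combination library, and at 24 h MTHFD2 to MTHFD1 was higher while SHMT2 to SHMT1 overlapped DMSO. The two-sided exact permutation test of log2 ratios gave p = 0.1 in 5 of 6 comparisons, the smallest that 3 against 3 libraries allow, and p = 0.3 for SHMT2 to SHMT1 at 24 h. Adjusted over the 6 comparisons these were 0.12 and 0.3, so a p under 0.05 was out of reach.

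**Figure D2:**
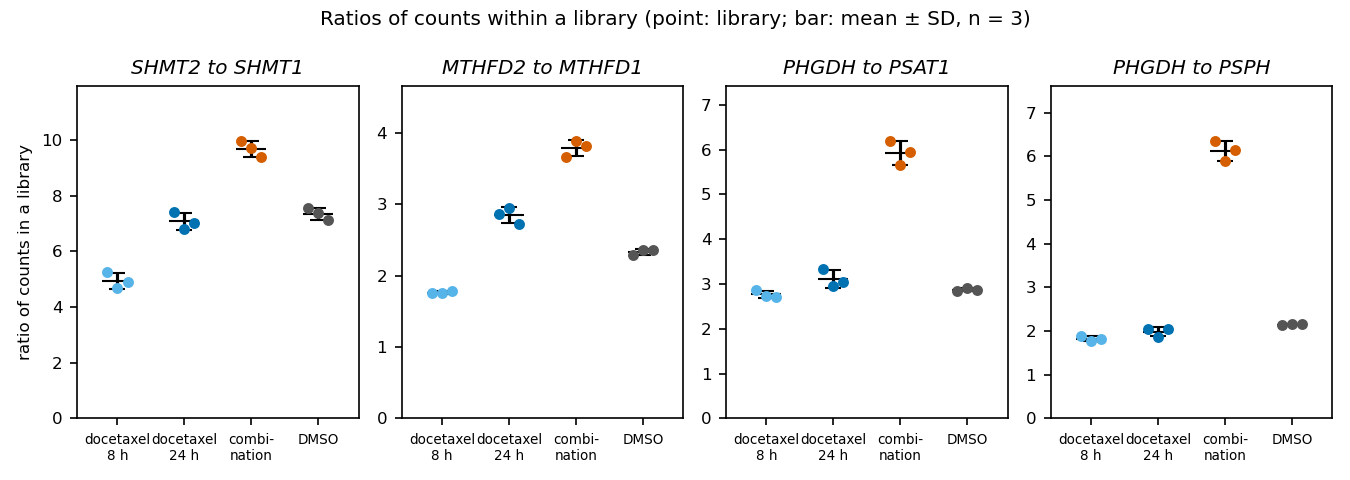
Ratios of counts within each library (vertical axes from 0) in docetaxel 8 h, docetaxel 24 h, the combination and DMSO; points are libraries and bars are means with SD of 3. MTHFD2 to MTHFD1 averages 1.76 at 8 h docetaxel and 3.79 in the combination, against 2.34 in DMSO, and PHGDH to PSPH stands out in the combination at 6.13 against 2.15 in DMSO.

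MTHFD1, the cytosolic enzyme that interconverts folate-bound units up to 10-formyltetrahydrofolate (chr14:64388031-64463457, plus strand), fell at 24 h docetaxel and in the combination. It had 119.6, 119.5 and 115 CPM at 8 h docetaxel, 81.3, 86.8 and 87.0 CPM at 24 h and 65.1, 59.7 and 60.0 CPM in the combination, against 118, 116 and 111 CPM in DMSO. The 8 h and DMSO libraries overlapped, and every 24 h and combination library lay below them. The log2 fold change was -0.43 ± 0.050 at 24 h (adjusted p = 4.62e-07) and -0.90 ± 0.051 in the combination (adjusted p = 5.91e-13), where the level was 1.87 times lower. At 8 h it was 0.038 ± 0.050 (adjusted p = 0.563), but -0.12 with library totals (adjusted p = 0.0479), so its direction at 8 h depends on the scaling. Exons of MTHFD1 share 178 bases with ZBTB25 on the opposite strand, which had at most 281 counts in a library.

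MTHFD2, the mitochondrial dehydrogenase and cyclohydrolase (chr2:74198562-74217565, plus strand), was lower than DMSO in each treatment. It had 209.9, 209 and 204 CPM at 8 h docetaxel, 233, 255 and 237 CPM at 24 h and 239, 232 and 229 CPM in the combination, against 269, 275 and 262 CPM in DMSO. The 8 h libraries were the lowest and the DMSO libraries the highest. It fell by 0.37 at 8 h (adjusted p = 9.70e-07), by 0.15 at 24 h (adjusted p = 0.0114) and by 0.20 in the combination (adjusted p = 0.000619), on the log2 scale. The 24 h call was lost without docetaxel 24 h library A or C or DMSO library A or B, with values of -0.14 to -0.13 and adjusted p of 0.0503 to 0.0805. The combination and docetaxel 24 h did not differ past the threshold (-0.052 ± 0.047, adjusted p = 0.343).

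MTHFD1L, the mitochondrial synthetase that releases formate (chr6:150865549-151101887, plus strand), had 79.2, 77.1 and 71.2 CPM at 8 h docetaxel, 76.1, 71.7 and 62.9 CPM at 24 h and 69.6, 65.9 and 61.5 CPM in the combination, against 81.7, 86.8 and 82.7 CPM in DMSO. Every treated library lay below the DMSO libraries. It fell at 24 h (-0.26 ± 0.063, adjusted p = 0.00229) and in the combination (-0.35 ± 0.064, adjusted p = 5.31e-05). At 8 h it was -0.14 ± 0.064 (adjusted p = 0.0725), a value that passed without docetaxel 8 h library A (-0.17, adjusted p = 0.0424). It also passed with library totals (-0.30, adjusted p = 0.000466), with no count filter (adjusted p = 0.0425) and with only those groups compared (adjusted p = 0.0374). In its order of DMSO, docetaxel 8 h, docetaxel 24 h and combination no neighbours differed past the threshold.

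ALDH1L2, the mitochondrial enzyme that oxidises the formyl unit to CO2 with reduction of NADP+ (chr12:105019784-105084577, minus strand), was lower in every treatment. It had 24.4, 27.1 and 26.1 CPM at 8 h docetaxel, 46.6, 47.0 and 47.2 CPM at 24 h and 53.1, 62.1 and 57.1 CPM in the combination, against 67.7, 71.7 and 67.7 CPM in DMSO. No groups overlapped, and all neighbours in the order of DMSO, combination, docetaxel 24 h and docetaxel 8 h differed past the threshold. At 8 h its level was 2.67 times lower than in DMSO (-1.42 ± 0.061, adjusted p = 6.24e-14), the largest change among the 9 enzymes against DMSO. The log2 fold change was -0.56 ± 0.057 at 24 h (adjusted p = 1.17e-07) and -0.27 ± 0.057 in the combination (adjusted p = 0.000327). C12orf45, which shares 145 exon bases on the opposite strand, had 18.4, 13.8 and 8.56 CPM in docetaxel 8 h, docetaxel 24 h and the combination, against 12.1 CPM in DMSO. Whether counting used strand is not stated, so reads of the shared bases cannot be told apart. At 8 h C12orf45 was higher than DMSO (0.61 ± 0.084, adjusted p = 2.83e-06), opposite in sign to ALDH1L2, and in the combination it was lower (-0.49 ± 0.090, adjusted p = 5.83e-05), as ALDH1L2 was. SHMT1 shares 196 exon bases with SMCR8 on the opposite strand, which took 756 to 1563 counts a library. SMCR8 fell at 8 h (-0.46), at 24 h (-0.49) and in the combination (-0.39, adjusted p = 0.000164). SHMT1 fell at 24 h and in the combination as well, and the part of shared reads was not tested.

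Sites of 3 motifs linked in general knowledge to regulators of these genes were looked for on both strands in RefSeq windows of 300 bases, 250 before and 50 after each start. The letters were TGATGNAA for a composite of ATF4 and C/EBP, CACGTG for the E-box that MYC can bind, and TGACNNNGC for the antioxidant response element of NFE2L2. They are printed because ATF4, MYC and NFE2L2 are measured below. Each line gives the 30 bases around a match on GRCh38.p14, plus strand, with the match in capitals.
MTHFD1L composite, chr6:150866345-150866374: ggccgccggctcTGATGCAAtcgcgccggg
MTHFD1L E-box, chr6:150866320-150866349: cacgcccggctcCACGTGcgcagccggccg
MTHFD1 E-box, chr14:64388326-64388355: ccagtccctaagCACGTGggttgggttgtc
MTHFD2 antioxidant element, chr2:74198609-74198638: gcttccctcccgGCGCAGTCAccggcgcgg
The composite occurred in 3.62% of 35116 RefSeq promoters, the E-box in 7.26% and the antioxidant element in 13.3%. Counted by gene, over 27305 genes, the shares were 4.46%, 8.77% and 16.1%. MTHFD1L was searched at several starts. No window of PHGDH, PSAT1 or SHMT1 held these letters, which says nothing of the factors themselves.

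Counted together, none of the 9 enzymes rose and 6 fell at 8 h docetaxel, where 22.5% of all genes tested rose and 24.8% fell. The median log2 fold change of the 9 was -0.50, against -0.021 over all genes. With library totals in place of TMM all 9 fell at 8 h, in a scaling that gave 12.9% higher and 38.1% lower of all genes, and with no count filter or only those groups compared 7 fell. At 24 h docetaxel none rose and 7 fell, where 20.2% of all genes rose and 22.7% fell, with medians of -0.19 for the 9 and 0.0060 for all genes. In the combination 1 rose (PHGDH) and 7 fell, where 31.4% of all genes rose and 31.4% fell, with medians of -0.35 for the 9 and 0.0087 for all genes. These comparisons share the DMSO libraries. The summed level of all 9 was 1886 ± 73.6 CPM at 8 h docetaxel, 2557 ± 44.3 CPM at 24 h and 3016 ± 131 CPM in the combination, against 2795 ± 13.6 CPM in DMSO. Without PHGDH the sum was 1282 ± 35.5, 1605 ± 53.5 and 1381 ± 35.8 CPM in docetaxel 8 h, docetaxel 24 h and the combination, against 1787 ± 7.07 CPM in DMSO. The combination sum thus lay above DMSO with PHGDH and below it without PHGDH.

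**Figure D3:**
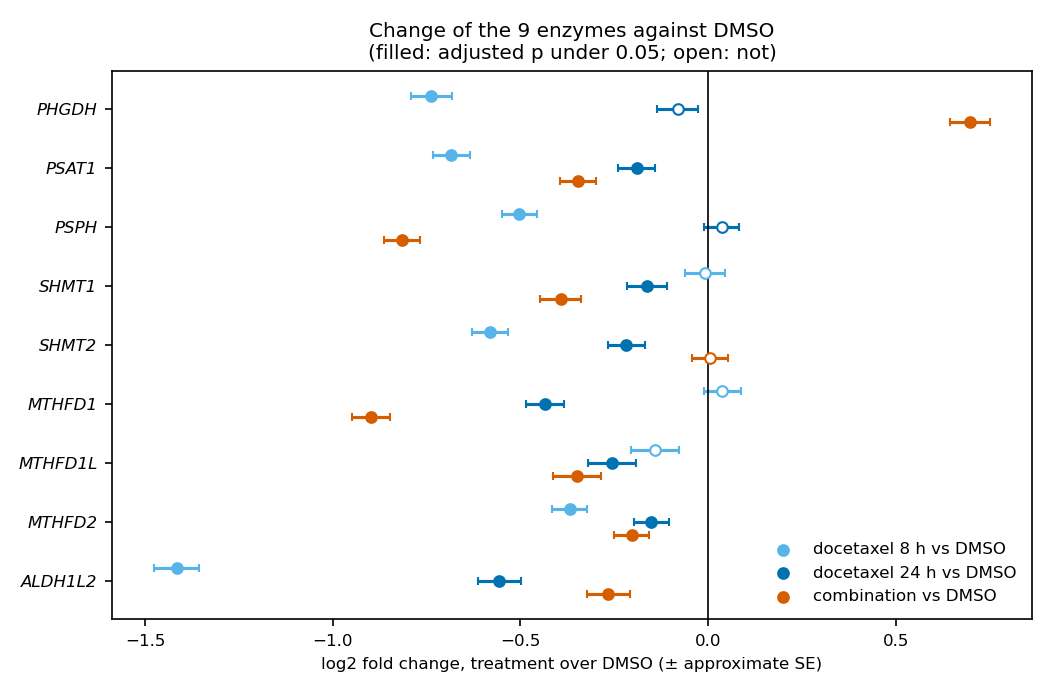
Log2 fold change against DMSO (horizontal axis) of the 9 enzymes in docetaxel 8 h, docetaxel 24 h and the combination; bars are standard errors, filled points have an adjusted p under 0.05 and open points do not. ALDH1L2 at 8 h docetaxel lies farthest left, at -1.42, and PHGDH in the combination is the filled point right of 0, at 0.70.

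Between 8 and 24 h of docetaxel, 6 enzymes were higher and 2 lower at the later time, against 16.6% higher and 18.3% lower of all genes. Library totals gave 30.3% higher and 9.33% lower of all genes. The median of the 9 was 0.36, with 0.012 over all genes. ALDH1L2 (0.86 ± 0.061, adjusted p = 2.67e-10) and PHGDH (0.66 ± 0.054, adjusted p = 2.61e-09) had the largest rises. PSPH (0.54), PSAT1 (0.49), SHMT2 (0.36) and MTHFD2 (0.22) were also higher at 24 h, with adjusted p of 6.87e-09 to 0.000842. MTHFD1 was lower at 24 h (-0.47 ± 0.050, adjusted p = 1.32e-07). SHMT1 was lower too (-0.15 ± 0.054, adjusted p = 0.0308), but its call was lost without docetaxel 8 h library B or docetaxel 24 h library A or C, with adjusted p of 0.0804 to 0.11. It was also lost with library totals, at -0.022. MTHFD1L had -0.11 ± 0.064 (adjusted p = 0.177), and passed without docetaxel 24 h library A (-0.18, adjusted p = 0.0495). ALDH1L2 at 24 h was still below DMSO, while PHGDH and PSPH no longer differed from it past the threshold.

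The combination set against docetaxel 24 h had 3 enzymes higher and 4 lower, against 32.1% higher and 31.7% lower of all genes. PHGDH (0.78 ± 0.054, adjusted p = 1.80e-11), ALDH1L2 (0.29, adjusted p = 0.000137) and SHMT2 (0.22, adjusted p = 0.000373) were higher in the combination. PSPH (-0.85 ± 0.047, adjusted p = 4.08e-13), MTHFD1 (-0.47, adjusted p = 4.12e-08), SHMT1 (-0.23, adjusted p = 0.000872) and PSAT1 were lower. MTHFD1L had -0.094 ± 0.064 (adjusted p = 0.211), and passed without docetaxel 24 h library C (-0.16, adjusted p = 0.0378). Set against docetaxel 8 h, the combination had 5 enzymes higher and 4 lower, against 34.3% higher and 32.1% lower of all genes, or 40.6% higher and 25.0% lower with library totals. The largest differences were PHGDH, at 2.71 times the 8 h level (1.44 ± 0.055), and ALDH1L2 (1.15 ± 0.061). SHMT2 (0.59), PSAT1 (0.34) and MTHFD2 (0.17) were also higher, and MTHFD1 (-0.94), SHMT1 (-0.38), PSPH (-0.31) and MTHFD1L (-0.21) lower. MTHFD1L lost that call without combination library C (-0.16, adjusted p = 0.0542) and with library totals (-0.091). The combination cultures followed 5 days of pretreatment and were in smaller plates than the docetaxel cultures, for which neither pretreatment nor serum is labelled, so agent and culture cannot be told apart.

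Levels of different enzymes were compared per kb of the GENCODE principal transcript, since the transcript used by these cells is unknown. In DMSO, PHGDH had 389.8 ± 3.38 CPM per kb, PSPH 215 ± 1.03, PSAT1 160.1 ± 1.55 and SHMT2 149.9 ± 0.928 CPM per kb. MTHFD2 had 60.2 ± 1.47, MTHFD1 36.6 ± 1.17, MTHFD1L 23.2 ± 0.755, SHMT1 21.0 ± 0.717 and ALDH1L2 9.15 ± 0.306 CPM per kb. The serine synthesis enzymes and SHMT2 thus had the highest levels per length and ALDH1L2 the lowest. With the length of all merged exons, a measure added after the data were seen, PHGDH had 109 CPM per kb, below PSPH (169.8) and PSAT1 (160.1), and SHMT1 (7.11) was below ALDH1L2 (8.11), so the first and last places depend on the length used. In the combination PHGDH had 632 ± 37.2 CPM per kb of the principal transcript, against 122 ± 2.72 for PSPH.

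Among 10606 protein-coding genes with a mean of at least 5 CPM, the 5 whose log2 CPM over the 12 libraries was most like PHGDH included FAM171A2, ALDH7A1, RARRES3 and PDZK1IP1, with Pearson r of 0.990 to 0.994. RARRES3, named as a retinoic acid receptor responder, had 24.5, 46.0 and 105 CPM in docetaxel 8 h, docetaxel 24 h and the combination, against 59.1 CPM in DMSO. ALDH7A1, an aldehyde dehydrogenase of lysine breakdown, had 155, 196 and 289 CPM in docetaxel 8 h, docetaxel 24 h and the combination, against 217 CPM in DMSO. Each of these 4 was lowest at 8 h docetaxel and highest in the combination, as PHGDH was, which follows from how they were picked. Those most like MTHFD2 included EFEMP1, PTH2R, ATMIN and CASP10, with r of 0.957 to 0.975. EFEMP1, an extracellular matrix protein, had 55.5, 72.7 and 72.6 CPM in docetaxel 8 h, docetaxel 24 h and the combination, against 95.3 CPM in DMSO. The 12 libraries fall into 4 groups, so these values describe the pattern over groups and carry no p.

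Purine synthesis, which uses formyl units from folate and glycine from serine, was followed with 12 genes. Of all genes, 22.5% rose and 24.8% fell at 8 h, 20.2% rose and 22.7% fell at 24 h, and 31.4% rose and 31.4% fell with the inhibitors. Of the 12 purine genes, 6 rose and none fell at 8 h docetaxel. At 24 h none rose and 6 fell, and in the combination 2 rose and 9 fell. Their median log2 fold changes were 0.14 at 8 h, -0.12 at 24 h and -0.52 in the combination. PAICS, which carries out middle steps of the pathway, rose at 8 h (0.48 ± 0.046, adjusted p = 1.73e-08) and fell in the combination (-0.97 ± 0.047, adjusted p = 3.27e-14). PPAT, the first committed enzyme (-1.03 ± 0.062, adjusted p = 1.85e-12), and GART, which takes up a formyl unit (-0.66 ± 0.046, adjusted p = 1.96e-11), also fell in the combination. PRPS1, which makes the ribose donor, rose at 8 h (0.36) and fell in the combination (-0.65), and IMPDH1 (0.22) and IMPDH2 (0.23) of guanine nucleotide synthesis rose at 8 h. With library totals both 8 h calls were lost, at 0.064 for IMPDH1 and 0.070 for IMPDH2. The 2 genes that rose in the combination were IMPDH2 (0.35 ± 0.056, adjusted p = 8.73e-06) and PRPS2 (0.34 ± 0.052, adjusted p = 5.49e-06), while IMPDH1 fell there (-0.24). At 24 h docetaxel GART (-0.26), GMPS (-0.28), ADSS (-0.23) and PFAS (-0.27) fell.

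Of 15 tested genes, from 17 listed, of other folate steps and folate transport, 5 rose and 2 fell at 8 h docetaxel, 2 rose and 7 fell at 24 h, and 2 rose and 7 fell in the combination. Across all genes 22.5% rose and 24.8% fell at 8 h, 20.2% rose and 22.7% fell at 24 h, and 31.4% rose and 31.4% fell with the inhibitors. The list medians were 0.086 at 8 h, -0.14 at 24 h and -0.24 in the combination. The folate carrier SLC19A1 rose at 8 h (0.22 ± 0.059, adjusted p = 0.00367) and fell at 24 h (-0.47, adjusted p = 1.67e-06) and in the combination (-1.11 ± 0.062, adjusted p = 4.45e-13). Its 8 h call was lost with library totals (0.064). Thymidylate synthase, TYMS, rose at 8 h (0.48 ± 0.054, adjusted p = 1.89e-07) and fell in the combination (-0.73 ± 0.056, adjusted p = 1.01e-10). At 8 h FPGS, which adds glutamates to folate, rose (0.35). At 24 h methionine synthase, MTR (-0.47), and the proton-coupled folate transporter SLC46A1 (-0.74) fell. A list of 6 genes, 4 of them tested, covered glycine cleavage and the breakdown of threonine to glycine. Of the 4, 1 rose at 8 h and at 24 h (GCSH, 0.39 at 8 h and 0.24 at 24 h). In the combination 2 fell: DLD (-0.75) and GCAT (-0.57), the latter of threonine breakdown. GLDC, of glycine cleavage, averaged 1.35 to 1.59 CPM over the groups and was not called, and AMT was not tested. Medians of the 4 were 0.050 at 8 h, -0.072 at 24 h and -0.38 in the combination. The 24 h call of GCSH was lost without docetaxel 24 h library B (0.16) or DMSO library C (0.15), with library totals (0.22) and with DESeq2 (0.24).

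Of 11 serine and glycine transporters, 1 rose and 6 fell at 8 h docetaxel, none rose and 5 fell at 24 h, and 4 rose and 5 fell in the combination, with medians of -0.41 at 8 h, -0.18 at 24 h and -0.11 in the combination. Among all genes tested, 22.5% rose and 24.8% fell at 8 h, 20.2% rose and 22.7% fell at 24 h, and 31.4% rose and 31.4% fell with the inhibitors. The same shares apply to the genes of serine use below. Of the 4 transporters that rose in the combination, SLC38A5 had 0.637 against 0.269 CPM in DMSO and SLC7A10 0.480 against 0.107 CPM, both near the floor. SLC38A2 (0.13 ± 0.051, adjusted p = 0.0305) and SFXN3 were the others. The 24 h median was the value of SLC38A5 (-0.18 ± 0.42), which was not called there, at 0.244 CPM. At 8 h SLC1A4 (-0.84 ± 0.060, adjusted p = 2.03e-10), SLC6A9 (-0.64), SLC38A1 (-0.70) and SLC38A2 (-0.67), neutral amino acid or glycine carriers of the cell surface, fell. SLC1A4 (-0.62), SLC6A9 (-0.37) and SLC38A1 (-0.36) were also below DMSO at 24 h, as was SFXN2 (-0.60). In the combination SFXN3 rose (1.69 ± 0.10, adjusted p = 6.16e-13), at 17.8 ± 1.01 CPM in the combination against 5.52 ± 0.453 CPM in DMSO, while its mitochondrial relatives SFXN1 (-0.44) and SFXN2 (-0.69) fell and SLC6A9 fell too (-0.28). SFXN1 was the transporter that rose at 8 h docetaxel (0.15 ± 0.047, adjusted p = 0.0134), where library totals moved the median of all genes by -0.16. It is a known mitochondrial serine carrier, and serine transport was not measured here. Of 13 tested genes of serine use from 14 listed, 2 rose and 5 fell at 8 h, none rose and 5 fell at 24 h, and 6 rose and 3 fell in the combination, with medians of -0.044 at 8 h, -0.15 at 24 h and 0.086 in the combination. The seryl-tRNA synthetase SARS fell at 8 h (-0.52 ± 0.053, adjusted p = 4.01e-08) and rose in the combination (0.18 ± 0.053, adjusted p = 0.00602). PTDSS1, a phosphatidylserine synthase, rose at 8 h (0.23) and fell at 24 h (-0.21) and in the combination (-0.56), the 8 h call being lost with library totals (0.075). SPTLC2 of sphingolipid synthesis fell at 24 h (-0.44) and rose in the combination (0.28), where its paralog SPTLC3 fell (-0.90) and SERINC1, of the SERINC membrane proteins, rose (0.27). SERINC5 (-0.44 and -0.39) and SERINC3 (-0.21 and -0.15) fell at 8 and 24 h.

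Of 11 tested methionine cycle and transsulfuration genes from 12 listed, 1 rose and 5 fell at 8 h docetaxel, 2 rose and 4 fell at 24 h, and 2 rose and 4 fell in the combination, with medians of -0.36 at 8 h, -0.14 at 24 h and -0.10 in the combination. For comparison, of all genes 22.5% rose and 24.8% fell at 8 h, 20.2% rose and 22.7% fell at 24 h, and 31.4% rose and 31.4% fell with the inhibitors. The gene that rose at 8 h was BHMT2, at 0.687 against 0.397 CPM in DMSO (adjusted p = 0.0434). The 8 h median was the value of GNMT (-0.36 ± 0.41), which was not called, at 0.393 against 0.514 CPM. CBS, counted as falling at 8 and 24 h, had libraries that overlapped DMSO. Its DMSO libraries A, B and C had 32.9, 62.4 and 32.8 CPM. MAT2A, which makes S-adenosylmethionine, fell at 8 h (-0.28), at 24 h (-0.35) and in the combination (-0.54 ± 0.055, adjusted p = 1.08e-08), and its regulatory subunit MAT2B rose at 24 h (0.22). CTH, the last enzyme of cysteine synthesis from homocysteine, fell at 8 h (-0.91 ± 0.081, adjusted p = 6.62e-09). At 24 h CTH was above DMSO, close to the threshold (0.19 ± 0.075, adjusted p = 0.0495), and above its 8 h level (1.09 ± 0.080, adjusted p = 4.67e-10). AHCYL1 fell at 8 h (-0.47) and 24 h (-0.44), and AHCYL2 fell at 8 h (-0.62), at 24 h (-0.43) and in the combination (-0.47). In the combination AHCY, which hydrolyses S-adenosylhomocysteine (-0.41), and MTAP of methionine salvage (-0.48) also fell.

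Of 8 genes known as regulators of these enzymes or of serine flux, 2 rose and 2 fell at 8 h docetaxel, 2 rose and 2 fell at 24 h, and 2 rose and 4 fell in the combination, with medians of -0.055 at 8 h, -0.066 at 24 h and -0.13 in the combination. Over all tested genes, 22.5% rose and 24.8% fell at 8 h, 20.2% rose and 22.7% fell at 24 h, and 31.4% rose and 31.4% fell with the inhibitors, so the counts at 8 and 24 h are near the background. ATF4, a stress transcription factor known to act on serine synthesis genes, had 996 ± 87.6 CPM at 8 h docetaxel, 1115 ± 36.1 at 24 h and 1113 ± 53.9 in the combination, against 912 ± 16.1 CPM in DMSO. Its log2 fold change was 0.13 ± 0.058 at 8 h (adjusted p = 0.0768), 0.29 ± 0.058 at 24 h (adjusted p = 0.000296) and 0.29 ± 0.058 in the combination (adjusted p = 0.000153). ATF4 is controlled largely in translation, which RNA counts do not measure. MYC had 102 ± 6.57 CPM in the combination against 198 ± 5.65 CPM in DMSO (-0.95 ± 0.054, adjusted p = 6.66e-13). The pyruvate kinase gene PKM rose at 8 h (0.30 ± 0.051, adjusted p = 4.47e-05) and fell in the combination (-0.46 ± 0.051, adjusted p = 4.53e-08). NFE2L2, the oxidative stress factor, rose at 8 h (0.20), a call lost with library totals (0.048). The ATF4 partner CEBPG rose at 24 h (0.15), a call lost without docetaxel 24 h library C (0.12) and with no count filter (0.13). CEBPG also rose in the combination (0.20 ± 0.047, adjusted p = 0.000856). EHMT2, a histone methyltransferase known to act on serine genes, fell at 8 h (-0.31), at 24 h (-0.35) and in the combination (-0.24, adjusted p = 0.000338). TP73 fell at 8 h (-0.31), at 24 h (-0.73) and in the combination (-0.89).

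**Figure D4:**
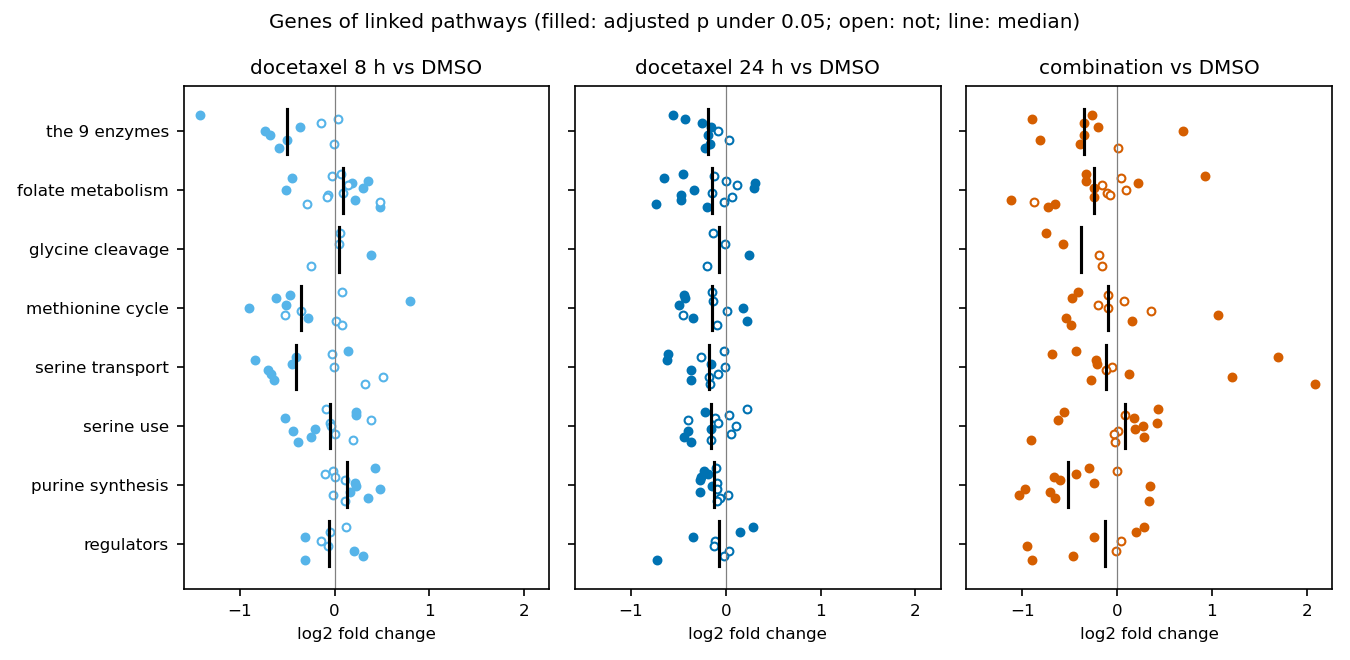
Log2 fold change against DMSO of each tested gene of the linked pathways, by list, with the 9 enzymes in the top line, in docetaxel 8 h, docetaxel 24 h and the combination (1 panel each); filled points have an adjusted p under 0.05 and lines are medians. The purine synthesis median is 0.14 at 8 h, -0.12 at 24 h and -0.52 in the combination. The glycine cleavage line includes GCAT of threonine breakdown.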

How the data were processed

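Gene expression was measured by RNA sequencing of poly(A) RNA in 12 libraries. The deposited values are whole-number counts per gene symbol, made by the authors, in a table per library, between 29820617 and 45807059 a library. Per the submitters' processing notes, fastp, HISAT2 2.0.5, DESeq2 and hg38 were used, in roles that are not stated. How reads were counted, with which annotation and whether by strand is also not stated. The authors' table for docetaxel was not used here. Symbols, positions and lengths were matched to GENCODE 29: 58708 of 58735 symbols matched, and 27 symbols in the form of dates, at most 0.204% of a library, did not.

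Counts were fitted in R 4.3.3 with edgeR 4.0.16 (TMM, filterByExpr with a minimum count of 10, quasi-likelihood test) in 1 model of all 12 libraries with no covariate. P-values were Benjamini-Hochberg adjusted over 17780 genes with a threshold of 0.05. Standard errors are approximate, taken as the absolute log2 fold change over the root of F. The fit was tested on simulated data. CPM carry no prior count, and the likeness to other genes used log2 CPM with a prior count of 2. Library pairs of a group differed by more than sampling noise (chi-square per degree of freedom 3.25 to 16.3), so none was merged. Alternatives were library totals, DESeq2 size factors, mitochondrial genes left out, DESeq2 1.42.0, no count filter, only the groups compared, a block for the letter, and leaving out each library.

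The 9 enzymes and the gene lists were chosen with earlier results of these data known. The text names all 9 enzymes, from each list up to 4 genes called against DMSO (lowest adjusted p first, per comparison), and the 5 genes most like PHGDH and the 5 most like MTHFD2. PSPHP1, EGFR, the overlapping genes and ATF4 at 8 h were added after their values were seen. So were CEBPG, EHMT2, IMPDH1, IMPDH2 and PRPS2 in the combination. The same holds for BHMT2, GNMT, CBS, SLC38A5 and SLC7A10, for SFXN1 at 8 h, CTH at 24 h and SLC38A2 in the combination. Some genes that this rule names are not reported here.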

Additional observations from a re-analysis of the deposited data

Results flagged for a closer look

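The log2 fold changes of docetaxel 8 h and 24 h, each against DMSO, differed past the threshold in 8 of the 9 enzymes. The test was edgeR's, of docetaxel 24 h against 8 h. Of all genes, 16.6% were higher and 18.3% lower at 24 h in that test, or 30.3% and 9.33% with library totals. The DMSO libraries cancel in this difference. On the log2 scale it was 0.86 for ALDH1L2, 0.66 for PHGDH, 0.54 for PSPH, 0.49 for PSAT1, 0.36 for SHMT2, 0.22 for MTHFD2, all higher at 24 h. It was -0.47 for MTHFD1 and -0.15 for SHMT1, both lower at 24 h. The SHMT1 call was lost with library totals (-0.022) and without docetaxel 8 h library B or docetaxel 24 h library A or C.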

How the results depend on the processing

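Of the recomputed values of single enzymes, 667 kept direction and side of the threshold, 17 lost their call, 8 gained one and 10 turned sign. The number of enzymes lower at 24 than at 8 h docetaxel, 2, was 1 with library totals, with no count filter and with only those groups compared, and 1 to 2 when a library was left out; SHMT1 was the gene lost. MTHFD1 at 8 h docetaxel against DMSO turned to -0.12 with library totals. The other 9 turns passed the threshold in neither fit: SHMT1 at 8 h, 0.0020 with DESeq2 size factors, 0.0056 and 0.041 without DMSO library B or C and 0.0045 without docetaxel 8 h library C (leave-out range -0.030 to 0.041); PSPH at 24 h, -0.0032 without docetaxel 24 h library B (leave-out range -0.0032 to 0.056); SHMT2 in the combination, -0.033 with library totals, -0.032 with no count filter and -0.037 without combination library A (leave-out range -0.037 to 0.037); and MTHFD1L at 24 against 8 h, 0.018 with library totals. The cause was not tested. Library totals moved the median of all genes by -0.16 at 8 h docetaxel against DMSO, 0.13 at 24 against 8 h and 0.12 in the combination against 8 h.

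No pairing of libraries by letter was seen. Same-letter deviations from group means correlated between -0.13 and 0.14, with 1 of 18 pairs over 0.1. A library correlated best with its own letter, 1 of 3 choices, in 11 of 36 library comparisons. That does not exclude that a letter marks a shared culture or day. With the letter as a replicate block, MTHFD1L at 8 h gained a call (-0.14, adjusted p = 0.0261), so that 7 enzymes fell there, and no other call among the enzymes changed. With 3 libraries a group, the ratio tests cannot go below 0.1. The calls that a left-out library moved were of SHMT1, MTHFD1L, MTHFD2 and, between the combination and docetaxel 24 h, PSAT1.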
